A study of Saccharomyces cerevisiae with 10 samples.

Results

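The genes described here encode proteases of the yeast vacuole, small proteins that inhibit them, and APE2, an aminopeptidase found mainly outside the vacuole. They were taken from a list of 9 gene names, PEP4, PRB1, PRC1, CPS1, LAP4, APE2, APE3, PAI3 and PBI2, and all 9 were measured, among 5449 genes in all. Each had a single probe set that is not marked as shared with other sequences. LAP4 (YKL103C) carries its newer name APE1 in the array annotation. The mRNA came from a pooled culture of barcoded protein-complementation assay strains of Saccharomyces cerevisiae in the S288c background, each with a different pair of proteins fused to fragments of a methotrexate-resistant reductase. Cells were grown in minimal medium (yeast nitrogen base and ammonium sulfate) with dextrose and moved to the same medium with ethanol and methotrexate, and RNA was taken at the move (0 h) and after 0.5 h, 1 h, 4 h and 12 h of growth in ethanol. Each time was measured on 2 Affymetrix arrays that the labels call biological replicates, with no statement of whether they were separate cultures, so p measures the spread between arrays.

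The labels of all 10 arrays, those of 0 h included, name ethanol and methotrexate, and 0 h is the time of the move. No culture was kept in dextrose alongside. The later samples all had both ethanol and methotrexate, so the carbon source, the drug and the time since transfer cannot be told apart. The text on the study differs on whether the pre-culture already held methotrexate. In a pool of strains, a change in the mRNA of each cell and a change in the share of cells or strains that carry it cannot be told apart either. ADH2, PCK1 and ICL1, which serve growth on ethanol, were checked and were higher at all 4 later times, and the glucose transporter genes HXT1 and HXT3 were lower (limma). The pool is diploid, and 6 haploid-specific genes were checked for this reason. Their summed intensity was 695 to 869 at 0 h, 417 to 418 at 0.5 h, 383 to 445 at 1 h, 287 to 355 at 4 h and 303 to 356 at 12 h. STE2, MFA1 and MFA2 were lower at all 4 later times. None of the 6 was called higher in the main fit. At 0.5 h 1 was called higher after median centring and after quantile normalization, and at 1 h 1 was after quantile normalization. The mean of HO went from 95.3 at 0 h to 131.5 at 0.5 h. That of STE3 went from 26.7 at 0 h to 48.55 at 12 h. The strain barcodes were inserted at the HO locus, and whether this alters the HO signal was not tested. STE3 and BAR1 were dim, and array intensities lie above 0 also for genes that are not expressed. The part of these genes in the results was not tested. Replicate arrays had r = 0.978 to 0.986 over all genes. Array medians lay between 316 and 351.

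The vacuole is the lytic compartment of yeast and does the work that lysosomes do in animal cells. Its proteases are made as inactive precursors, and proteinase A, the product of PEP4, starts a cascade in which it and proteinase B cut the precursors to their active forms. The enzymes break down proteins that arrive by autophagy and endocytosis, and yeast cells that lack them survive starvation poorly. The inhibitors act outside the vacuole, in the cytosol, where they hold back protease that has leaked or is on its way.

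Most of these genes rose within 0.5 h of the move to ethanol. The inhibitor genes had log2 fold changes of 2.48 to 3.60 at that time and the enzyme genes 0.39 to 2.12. PEP4, PRB1, PRC1, APE3 and PAI3 fell again between 1 and 4 h or between 4 and 12 h, though none of these falls passed in all 16 other ways of processing the values. CPS1 changed by −0.54 and −0.37 log2 units in these steps and PEP4 by −0.56 and −0.34. Of these changes only that of PEP4 between 1 and 4 h passed, and CPS1 had the larger error. At 0.5 h, 7 of the 9 genes were higher than at 0 h (limma, adjusted p under 0.05), where 30.1% of all 5449 genes were higher. CPS1 and LAP4 did not pass. The median log2 fold change of the 9 was 1.65, against −0.05 over all genes. At 1 h, 8 were higher (29.3% of all genes), with a median of 1.66. At 4 h, 7 were higher (19.4%) with a median of 0.85, and at 12 h, 7 were higher (21.4%) with a median of 0.53. None of the 9 was called lower than at 0 h at any time, while 32.7, 33.4, 23.2 and 22% of all genes were lower in time order. Without any model, both arrays lay above both 0 h arrays for 9 of 9 genes at 0.5 h, where 39.4% of all genes did, and for 9 at 1 h (38.8%). At 4 and at 12 h this held for 8 genes (32.7% at each), the exception at both times being CPS1. Of the 7 calls at 12 h, those of LAP4, PAI3 and PBI2 held under each of these 16 alternatives, while 3 genes in all were called after quantile normalization and 3 without 0 h replicate 2.

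**Figure D1:**
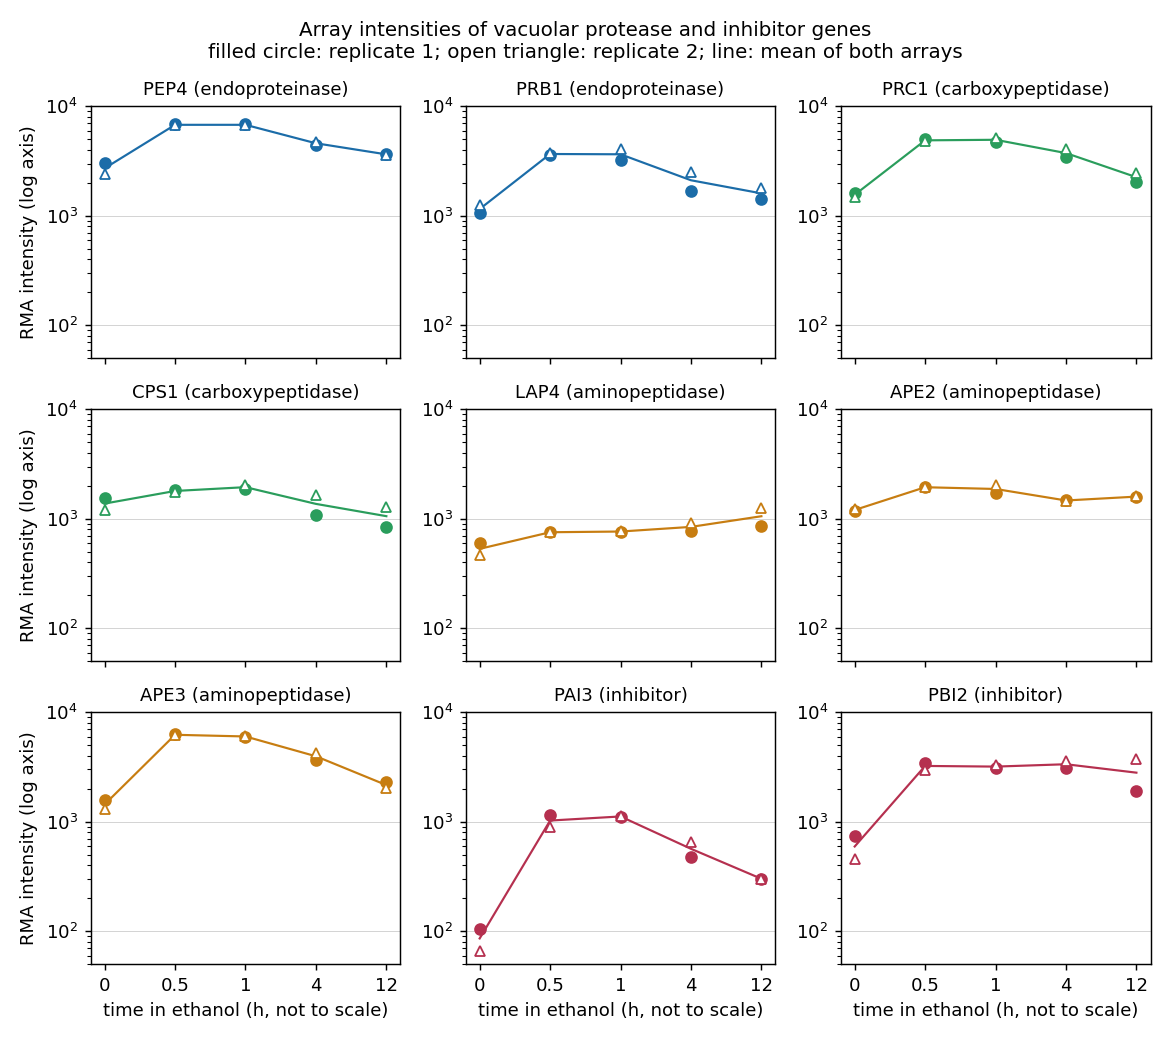
RMA intensity (log axis) of the 9 genes on each of the 10 arrays against time in ethanol; filled circles are replicate 1, open triangles replicate 2 and lines the mean of both. PEP4, PRB1, PRC1, APE3 and PAI3 are highest at 0.5 and 1 h and lower at 4 and 12 h, all later PBI2 arrays lie above those of 0 h, LAP4 has its highest mean at 12 h, and the CPS1 arrays of 4 and 12 h overlap those of 0 h.

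The endoproteinase genes rose 2.51 and 3.19-fold in 0.5 h and stood at 1.35 and 1.38 times their 0 h level at 12 h. PEP4 (YPL154C) encodes the aspartyl protease proteinase A that starts the activation of the other precursors. Its intensity was 3021 and 2406 on the 0 h arrays, 6834 and 6705 at 0.5 h, 6838 and 6700 at 1 h, 4446 and 4737 at 4 h and 3658 and 3614 at 12 h. The arrays of the 4 later times all lay above those of 0 h, with the first hour standing apart from every other time. This is a log2 fold change of 1.33 ± 0.16 at 0.5 h (SE, limma, adjusted p = 7.93e-05) and of 0.77 at 4 h (adjusted p = 0.00395). At 12 h it was 0.43 with an adjusted p of 0.0489, and the call was lost in 11 of the 16 alternatives. PRB1 (YEL060C) encodes proteinase B, a subtilisin-like serine protease that finishes the processing of several vacuolar precursors. Its intensity was 1061 and 1244 at 0 h, 3613 and 3716 at 0.5 h, 3234 and 4052 at 1 h, 1688 and 2532 at 4 h and 1416 and 1787 at 12 h. The arrays of 0.5 and 1 h were the highest, and those of 4 and 12 h overlapped each other. PRB1 changed by 1.67 ± 0.23 log2 units at 0.5 h (SE, adjusted p = 0.000173), 0.85 at 4 h (adjusted p = 0.0146) and 0.47 at 12 h (adjusted p = 0.123). The 4 h call was lost without 0 h replicate 1 (0.73, adjusted p = 0.0832) and without 4 h replicate 2 (0.56, adjusted p = 0.127).

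The carboxypeptidase genes PRC1 and CPS1 gave different results. PRC1 (YMR297W) encodes carboxypeptidase Y, a serine carboxypeptidase of the vacuole lumen and the classic cargo for work on vacuolar sorting. Its intensity was 1620 and 1490 at 0 h, 4974 and 4794 at 0.5 h, 4706 and 5178 at 1 h, 3425 and 4047 at 4 h and 2033 and 2467 at 12 h. No later array overlapped the 0 h arrays, and 12 h was the lowest of the later times. In log2 units PRC1 changed by 1.65 ± 0.16 at 0.5 h (SE, adjusted p = 3.29e-05), 1.26 at 4 h (adjusted p = 0.000344) and 0.53 at 12 h (adjusted p = 0.0275, lost in 4 of the 16 alternatives). CPS1 (YJL172W) encodes carboxypeptidase S, a zinc-dependent enzyme that reaches the vacuole through multivesicular bodies. Its intensity was 1557 and 1195 at 0 h, 1823 and 1764 at 0.5 h, 1853 and 2033 at 1 h, 1076 and 1658 at 4 h and 842 and 1270 at 12 h. Both early times lay above 0 h, and the arrays of 4 h lay on either side of the 0 h range. At 12 h replicate 1 lay below that range and replicate 2 within it. None of its 4 comparisons with 0 h passed. The log2 fold changes were 0.39, 0.51, −0.03 and −0.40 in time order, each with a standard error of 0.26, and the smallest adjusted p was 0.112 at 1 h. Its replicate arrays differed by 0.62 at 4 h and 0.59 at 12 h on the log2 scale.

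Of the 3 aminopeptidase genes, APE3 and APE2 had their highest means at 0.5 h and LAP4 at 12 h. They were not tested against each other. APE3 (YBR286W) encodes aminopeptidase Y, a vacuolar metalloprotease, and had the largest rise of the 7 enzyme genes. Its intensity was 1581 and 1300 at 0 h, 6263 and 6180 at 0.5 h, 5966 and 6045 at 1 h, 3638 and 4283 at 4 h and 2287 and 2036 at 12 h. From 1 h on, each time lay below the one before with no overlap of arrays, and 12 h still lay above 0 h. The rise was 2.12 ± 0.16 log2 units at 0.5 h (SE, adjusted p = 9.15e-06), 1.46 at 4 h (adjusted p = 0.000145) and 0.59 at 12 h (adjusted p = 0.0166, lost in 3 of the 16 alternatives). LAP4 encodes aminopeptidase I, which is made in the cytosol and carried to the vacuole by the cytoplasm-to-vacuole targeting route, a selective relative of autophagy. Its intensity was 596 and 466 at 0 h, 751 and 756 at 0.5 h, 751 and 778 at 1 h, 778 and 907 at 4 h and 865 and 1244 at 12 h. The early arrays lay close together above 0 h, and the highest array was 12 h replicate 2. LAP4 changed by 0.51 log2 units at 0.5 h (adjusted p = 0.052), 0.54 at 1 h (adjusted p = 0.0446), 0.67 at 4 h (adjusted p = 0.0266) and 0.98 ± 0.21 at 12 h (SE, adjusted p = 0.00424). Among the 9 genes LAP4 alone had its highest mean at 12 h. The call at 1 h was lost in 9 of the 16 alternatives, and that at 4 h without 0 h replicate 2 (0.49, adjusted p = 0.163) and without 4 h replicate 2 (0.56, adjusted p = 0.152).

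APE2 (YKL157W) encodes aminopeptidase yscII, a zinc enzyme. Its intensity was 1168 and 1237 at 0 h, 1941 and 1940 at 0.5 h, 1724 and 2017 at 1 h, 1470 and 1467 at 4 h and 1582 and 1604 at 12 h. All later arrays lay above 0 h, with 4 h the lowest of them. APE2 changed by 0.69 ± 0.15 log2 units at 0.5 h (SE, adjusted p = 0.00243), 0.63 at 1 h (adjusted p = 0.00397), 0.29 at 4 h (adjusted p = 0.14) and 0.41 at 12 h (adjusted p = 0.0474). The 12 h call was lost in 12 of the 16 alternatives.

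The inhibitor genes rose most. PAI3 (YMR174C) encodes the small inhibitor of proteinase A, a protein without fixed structure that folds into a helix in the active site of the enzyme. Its intensity was 105 and 66.7 at 0 h, 1157 and 893 at 0.5 h, 1099 and 1136 at 1 h, 479 and 653 at 4 h and 301 and 302 at 12 h. No later array overlapped those of 0 h, and 12 h lay below 4 h, which lay below the first hour. PAI3 rose 12.1-fold by 0.5 h, a log2 fold change of 3.60 ± 0.24 (SE, adjusted p = 5.21e-06), and stood at 3.74 at 1 h (4.6e-06), 2.74 at 4 h (4.08e-05) and 1.85 at 12 h (0.000307). The rise at 0.5 h was the 77th highest of 5449 genes. PAI3 was dim at 0 h, and its 4 calls held with an offset of 16 added to every intensity.

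PBI2 (YNL015W) encodes the cytosolic inhibitor of proteinase B, which also works with thioredoxin in the fusion of vacuoles. Its intensity was 734 and 455 at 0 h, 3473 and 2991 at 0.5 h, 3105 and 3270 at 1 h, 3106 and 3593 at 4 h and 1899 and 3712 at 12 h. The arrays of 0.5, 1 and 4 h overlapped and all later arrays lay above 0 h, while the arrays of 12 h differed by 0.97 on the log2 scale, the widest gap between replicates for any of the 9 genes. PBI2 changed by 2.48 ± 0.31 log2 units at 0.5 h (SE, adjusted p = 0.00012), 2.46 at 1 h (0.000139), 2.53 at 4 h (0.000264) and 2.20 at 12 h (0.000486). The rise ranked 199th of 5449 at 0.5 h and 101st at 4 h.

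**Figure D2:**
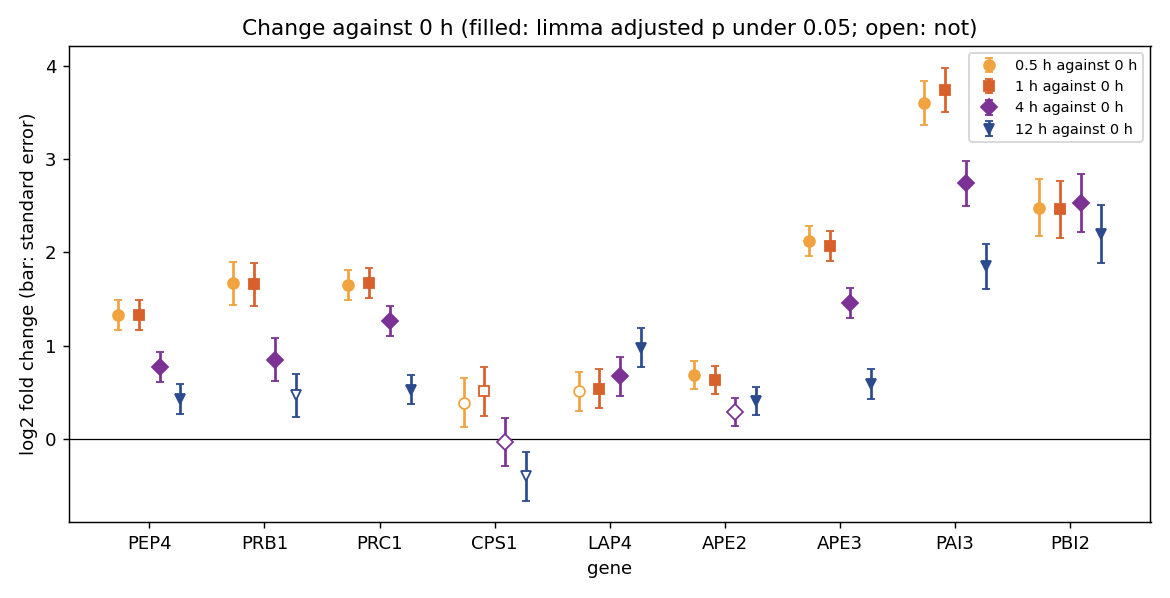
Log2 fold change of each gene at 0.5, 1, 4 and 12 h against 0 h, with bars for the standard error from limma; filled symbols have an adjusted p under 0.05 and open symbols do not. PAI3 reaches 3.74 at 1 h, PBI2 lies between 2.20 and 2.53 at all times, and no symbol of CPS1 is filled.

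Whether an inhibitor and its protease changed unequally was asked from the difference of their log2 intensities within each array, which removes what the probes of each gene hold constant. In all 5 pairs were compared over the 10 arrays with an exact permutation test of the F statistic over times, and p was adjusted over the 5 pairs. Relative to 0 h, PAI3 exceeded the change of PEP4 by 2.45 and 2.10 log2 units on the 0.5 h arrays, by 2.37 and 2.45 at 1 h, by 1.79 and 2.15 at 4 h and by 1.41 and 1.42 at 12 h. The 0 h arrays lay at 0.17 and −0.17, below all later ones. Over all times the adjusted p was 0.0132 (exact test), and 0.0556 with the replicate number as a block (exact test). PBI2 exceeded the change of PRB1 by 0.93 and 0.68 at 0.5 h and also at 1 h, by 1.87 and 1.50 at 4 h and by 1.42 and 2.05 at 12 h. The 0 h arrays lay at 0.46 and −0.46. Over all times the adjusted p was 0.0229 (exact test), and 0.0556 with the same block (exact test). These tests ask for any difference among the times and do not test the first hour alone. The excess of PBI2 over PRB1 was larger at 4 and 12 h than in the first hour on every array. The PBI2 result was lost without 0 h replicate 2 (adjusted p = 0.0886, exact test) and without 7 of the other arrays in turn (0.0529 to 0.0741).

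TFS1 (YLR178C), which encodes an inhibitor of carboxypeptidase Y and was not on the list of 9, rose 4.71-fold at 0.5 h. Its intensity was 941 and 529 at 0 h, 3465 and 3187 at 0.5 h, 3166 and 3343 at 1 h, 1206 and 1854 at 4 h and 765 and 895 at 12 h. The 12 h arrays lay between those of 0 h. Its log2 fold change was 2.24 at 0.5 h (adjusted p = 0.000117), 1.08 at 4 h (0.0131) and 0.23 at 12 h (0.539). The difference between TFS1 and PRC1 changed by 0.58, 0.54, −0.18 and −0.30 in time order and did not pass (adjusted p = 0.102, exact test). For the endoproteinase genes, PRB1 minus PEP4 changed by 0.35, 0.33, 0.08 and 0.04, with 0 h arrays at −0.28 and 0.28 (adjusted p = 0.589, exact test), which is within the spread of the 0 h arrays or close to it. APE2 was set against AAP1 (YHR047C), a related aminopeptidase gene of the cytosol. AAP1 fell from 868 and 938 at 0 h to 358 and 234 at 0.5 h, with a log2 fold change of −1.64 (adjusted p = 0.000177), while APE2 rose. Their difference changed by 2.33, 2.07, 0.79 and 1.50 in time order (adjusted p = 0.0132, exact test).

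**Figure D3:**
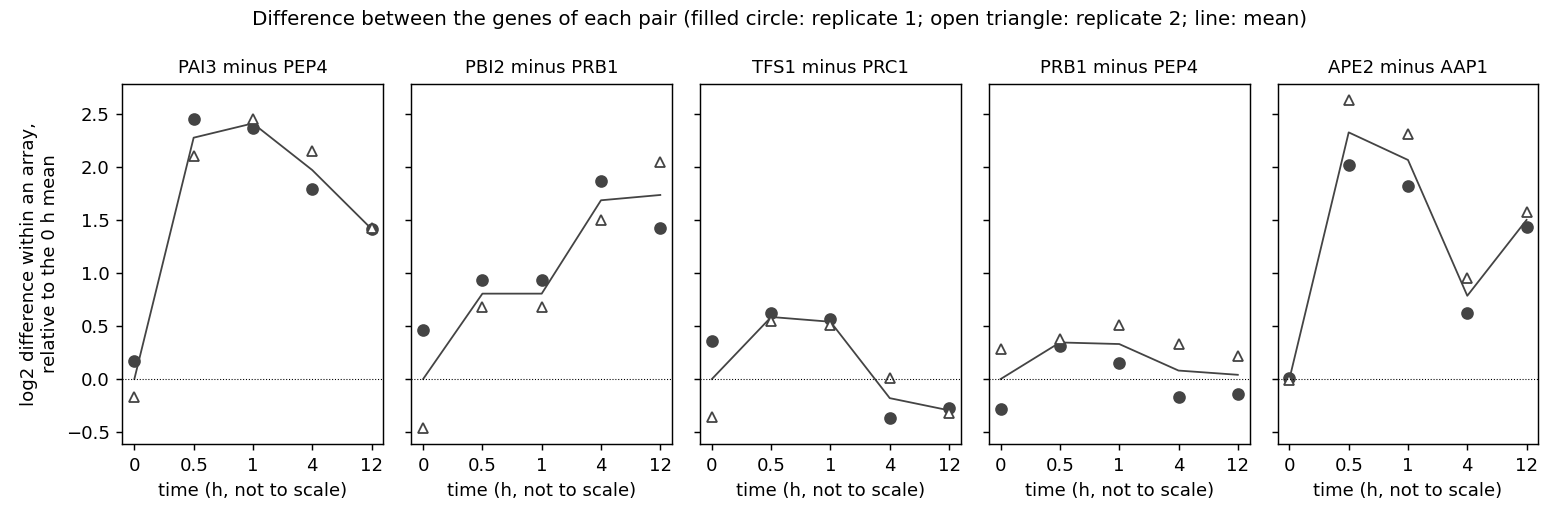
Difference of log2 intensities between the genes of each pair on each array, relative to the mean of the 0 h arrays, against time; filled circles are replicate 1, open triangles replicate 2 and lines the mean. The mean of PAI3 minus PEP4 is highest in the first hour, that of PBI2 minus PRB1 at 4 and 12 h, and the 0 h arrays of TFS1 minus PRC1 lie 0.36 on either side of their mean.

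The steps between successive times show when the mRNAs came down. Between 0.5 and 1 h no gene of the 9 and none of all 5449 passed by limma (0% called, 0 and 90 at an unadjusted p under 0.05), and the changes of the 9 ran from −0.06 to 0.14 log2 units. Between 1 and 4 h, 4 of the 9 fell, where 12.8% of all genes did, and none rose (14.5% of all genes). PAI3 went to 0.501 times its 1 h level (adjusted p = 0.0165), and the log2 changes of the others were −0.81 for PRB1 (0.0274), −0.61 for APE3 (0.0242) and −0.56 for PEP4 (0.027). The median of the 9 was −0.54, against −0.03 over all genes. Between 4 and 12 h, 3 of the 9 fell, where 4.5% of all genes did, and none rose (6.83%). These were PAI3 (−0.89, adjusted p = 0.0465), APE3 (−0.87, 0.00958) and PRC1 (−0.73, 0.0204). APE3 and PAI3 thus fell in both steps. CPS1 changed by −0.54 and −0.37 in these steps (adjusted p = 0.153 and 0.395). PBI2 changed by 0.07 and −0.33, LAP4 by 0.14 and 0.30 and APE2 by −0.34 and 0.12, none of which passed either. With 1 of the 1 h arrays or 4 h replicate 1 left out, 0 or 1 of the 4 falls from 1 to 4 h remained past the threshold. Without 4 h replicate 2 none of the 3 falls from 4 to 12 h did, and without 12 h replicate 1 a single fall did.

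As a description of shape, the log2 intensities of PEP4, PRB1, PRC1, APE3 and PAI3 correlated with each other over the 10 arrays at r = 0.92 to 0.99 (10 pairs). These arrays share 5 times and hold few independent points. The 5 genes were grouped after their values were seen, as those with a later fall that passed. High r among them is thus partly built in. APE2, which was not in this group, correlated with its genes at 0.85 to 0.91. PBI2 did so at 0.72 to 0.89 and CPS1 at 0.56 to 0.74. PBI2 correlated with PAI3 at 0.89 and with LAP4 at 0.80. LAP4 lay at 0.28 to 0.35 with PEP4, PRB1, PRC1 and APE3, at 0.47 with PAI3 and at 0.43 with APE2. CPS1 correlated with LAP4 at −0.06. Over all 36 pairs of the 9 the median was 0.79. The genes outside the 9 whose course was most like each of them over the 10 arrays were NPC2 and UBX3 for PEP4 (r = 0.997 and 0.995), PFK26 and TPS2 for PRB1 (0.997 and 0.995), and YKL107W and HEF3 for PRC1 (0.994 and 0.993). NPC2 encodes a sterol-binding protein of the vacuole, and TPS2 the phosphatase of trehalose synthesis. For APE3 they were UGX2 and MSC3 (0.994 and 0.993), and for PAI3 the peroxisomal transporter gene PXA1 and SPG5 (both 0.997). For PBI2 they were ICL1, which encodes isocitrate lyase of the glyoxylate cycle, and RDL2 (0.986 and 0.983). APE2 was most like RAD23 and AIM21 (0.980 and 0.973), LAP4 like TIM8 and YNR064C (0.956 and 0.941) and CPS1 like AIM17 and NYV1 (0.937 and 0.931), so that LAP4 and CPS1 had the least close matches.

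Counts over other gene lists are read against the shares of all genes, which were 30.1% higher and 32.7% lower at 0.5 h, 19.4 and 23.2% at 4 h, and 21.4 and 22% at 12 h. Among the other hydrolases of the vacuole, 5 of 9 measured genes were higher at 0.5 h and 1 was lower, with a median log2 fold change of 1.06. At 12 h 4 were higher and 1 lower, with a median of 0.46. ATH1, which encodes the acid trehalase, rose by 3.03 log2 units at 0.5 h (adjusted p = 8.22e-06) and was 2.33 above 0 h at 4 h and 1.29 at 12 h. APE4, a cytosolic aspartyl aminopeptidase that reaches the vacuole by the same route as aminopeptidase I, changed by 2.27 at 0.5 h, 1.48 at 4 h and 1.51 at 12 h (adjusted p = 9.77e-05). The α-mannosidase gene AMS1, whose product uses this route too, changed by 2.40, 1.45 and 0.87 at the same times (adjusted p = 0.0268 at 12 h). PHO8, which encodes the vacuolar alkaline phosphatase, was the lower one, at −0.61 at 0.5 h and −1.11 at 12 h (adjusted p = 0.000248), and it was named after its value was seen. The vacuolar protease genes DAP2 and PFF1 of this list did not pass at any time against 0 h. In time order DAP2 changed by 0.17, 0.07, −0.41 and −0.16 log2 units, and PFF1 by −0.36, −0.28, −0.34 and −0.44. Both were named after their values were seen.

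The next list held 7 genes for the cytoplasm-to-vacuole targeting route, counting the related receptor gene ATG34. Of these, 4 were higher at 0.5 h and none lower (30.1 and 32.7% of all genes), with a median of 0.75. At 4 h ATG34 (1.80, adjusted p = 0.000233) and ATG9 (1.08, 0.00722) were higher. ATG34 encodes a receptor related to Atg19, but the receptor of aminopeptidase I is Atg19, so the rise of ATG34 is no measure of its delivery. ATG9 encodes a membrane protein of autophagy. ATG19 itself did not pass at any time, with log2 fold changes of 0.02, −0.37, −1.19 and −0.28 in time order and a standard error of 0.44. It was named after its values were seen. Of 29 genes for vacuolar protein sorting, 9 were higher and 6 lower at 0.5 h (median 0.08), and 2 were higher and 9 lower at 12 h (median −0.29). The counts at 0.5 h are no result about sorting genes, since 30.1% of all genes were higher and 32.7% lower. At 12 h 21.4% of all genes were higher and 22% lower. VPS1, which encodes a dynamin-like GTPase, was higher at 4 h (1.00, adjusted p = 0.0037). VPS41, a subunit of the tethering complex at the vacuole, and VPS9, an exchange factor for the endosomal Rab proteins, were lower (−0.99 and −0.94). VPS10, the sorting receptor of carboxypeptidase Y, was higher at 0.5 h (0.73, adjusted p = 0.00331) and stood at −0.06 at 4 h (adjusted p = 0.792), and it was likewise chosen after its values were seen.

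Of 20 genes for the vacuolar ATPase and its assembly, 4 were higher and 6 lower at 0.5 h (median −0.19), and at 4 h 1 was higher and 4 lower. Of all genes, 30.1% were higher and 32.7% lower at 0.5 h and 19.4 and 23.2% at 4 h, so the lower counts lie near the background. The assembly factor gene VPH2 was at 0.93 at 4 h (adjusted p = 0.0131), and the subunit genes VMA8 and VMA7 were at −0.67 and −0.58. Median centring and quantile normalization raised the higher count at 4 h to 3 and 2, and the lower count to 5. Of 4 genes for the export of amino acids from the vacuole, 2 were higher at 0.5 h (30.1% of all genes), with a median of 0.60, among them AVT3, which was also higher at 4 h (0.73, adjusted p = 0.00421). At 12 h 1 of the 4 was higher and 2 were lower (21.4 and 22% of all genes). Of 5 cytosolic peptidase genes, 3 were higher and AAP1 was lower at 0.5 h (30.1 and 32.7% of all genes), and at 4 h LAP3 (0.74, adjusted p = 0.0291) and LAP2 (0.71, 0.00561) were higher. These lists were not tested against each other or against the 9 genes.

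**Figure D4:**
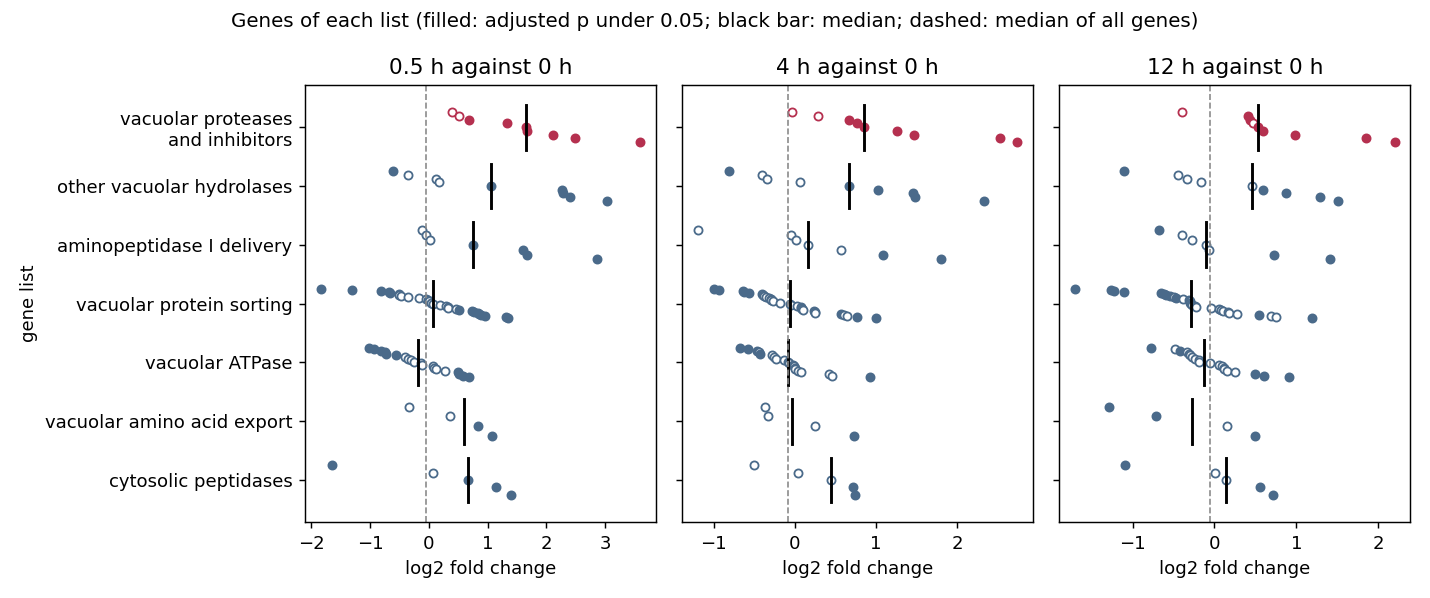
Log2 fold changes at 0.5, 4 and 12 h against 0 h for the genes of each list; each point is a gene, filled where its adjusted p is under 0.05, black bars are list medians and the dashed line is the median of all genes. The 9 protease and inhibitor genes have medians of 1.65, 0.85 and 0.53, and the sorting and ATPase genes lie on both sides of 0.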

How the data were processed

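Relative mRNA levels were measured on 10 Affymetrix arrays, 2 at each of 5 times. The authors read the arrays with MAS 5.0 and then ran robust multiarray analysis (RMA), which adjusts the background, normalizes between arrays and summarizes probe sets. The deposited values are RMA intensity on a linear scale, from 1.9 to 13817, for 5716 probe sets. No source used here gives the RMA version. Such scaling hides any change in the total mRNA of a cell. Of the probe sets, 5498 carry 1 gene symbol, and the brightest per gene was kept, which left 5449 genes. LAP4 was matched through its locus name in the gene table of assembly R64.

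Log2 intensities were fitted with limma 3.58.1 (R 4.3.3) in 1 model over all arrays, with 5 residual and 4.33 prior degrees of freedom and Benjamini-Hochberg adjustment over all genes at 0.05. The number of arrays limits the precision. Pair differences were tested by exact permutation over 113400 assignments of arrays to times, where the smallest possible p is 0.00106 (Python 3.11.15, numpy 2.4.6). Both were tested on simulated data with independent noise on each array, which says nothing about arrays that share a culture. Genes outside the 9 were named where they had up to the 3 largest calls of their list at 4 h, were pair partners, or were the 2 best correlated with a member. The members and lists were chosen with earlier results of these data known. ATG42 was not matched. The alternatives were median centring, quantile normalization, leaving out the dimmest genes, an offset of 16, a replicate block, an intensity trend and leaving out each array.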

Additional observations from a re-analysis of the deposited data

How the results depend on the processing

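Of 576 log2 fold changes of the 9 genes against 0 h under the alternatives, 523 kept their direction and side of the threshold, 43 lost the call, 8 gained it and 2 changed sign. The sign changes were those of CPS1 at 4 h, which was 0.16 without 0 h replicate 1 and 0.28 without 4 h replicate 1, within a range of −0.34 to 0.28 with an array left out. The count of the 9 called at 12 h was 3 after quantile normalization and 3 to 5 with an array left out (3 without 0 h replicate 2, and 4 without either 12 h array). With an array left out, the counts were 0 to 4 for 1 to 4 h and 0 to 3 for 4 to 12 h. Over all genes the count at 4 h ranged from 1383, without 4 h replicate 2, to 2452. The cause was not tested, beyond the fewer arrays in these fits, in which a lone array is assumed to vary like the others. The adjusted p for PBI2 minus PRB1 ran from 0.0194 to 0.0886 with an array left out. That for PAI3 minus PEP4 ran from 0.0106 to 0.0317.

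In the methods, aliquots of a pool culture were harvested at successive times, so arrays of different times can share a culture. Whether equal replicate numbers mark the same culture is not stated. The deviations of equal-numbered arrays correlated at 0.03 to 0.56 across genes over 10 pairs of times, all positive but weak for some pairs. With the replicate number as a block, PRB1 at 12 h (0.47, adjusted p = 0.0322) and LAP4 at 0.5 h (0.51, adjusted p = 0.0436) passed. Under this block PAI3 minus PEP4 and PBI2 minus PRB1 both had an adjusted p of 0.0556 (exact test of 120 assignments).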
